A study of Mus musculus with 2 samples.

Results

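The suppressors of cytokine signalling and the STAT transcription factors were described as 9 mouse genes, of 55450 annotated genes. The members were 4 inhibitor genes (Socs1, Socs2, Socs3 and Cish) and 5 STAT genes (Stat2, Stat3, Stat4, Stat5a and Stat6). They were chosen by symbol alone, and each symbol matched 1 annotated gene. Together the 9 genes have 62 annotated transcripts.

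Ribosomal-RNA-depleted total RNA came from the nucleoplasmic fraction, which the labels elsewhere call nuclear, of bone-marrow-derived macrophages of C57BL/6J mice. These are primary phagocytes grown in culture from marrow. The cells of both libraries received 100 ng/ml lipid A, the part of lipopolysaccharide that TLR4 senses, for 12 h, were kept without it for 12 h, and were given 100 ng/ml again for 25 min. Age and sex are entered as not collected, and no genetic change is named. The 2 libraries are biological replicates of this 1 group. Untreated cells, singly treated cells and cytoplasmic RNA were not analysed here, so the values below are levels after restimulation, not responses to lipid A. One donor entry covers both libraries, and their spread may be only technical. The starting amount was 500 ng of RNA for replicate 1 and 1 µg for replicate 2, and it cannot be told apart from the replicate.

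Many cytokines that macrophages make or sense bind receptors without kinase activity of their own, which carry a Janus kinase (JAK) on their inner tail. The kinase phosphorylates the receptor and the STAT proteins docked there, which pair, enter the nucleus and switch on target genes. SOCS proteins are among those targets: they bind the active receptor or kinase, block it or mark it for degradation, and so close a negative feedback loop. In macrophages this loop limits interferon and IL-6 signalling, and lipopolysaccharide engages it in part through the cytokines that it induces.

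Replicate 1 held 20196408 and replicate 2 held 19588980 expected counts, which are read counts shared out among transcripts by a model. Levels are given in TPM, a scale that relates reads to transcript length and to all transcripts measured, and so allows genes to be set side by side. The median log2 ratio of replicate 2 to replicate 1 over detected genes was -0.28 in TPM and 0.00 after TMM normalisation of the counts, which is used for ratios between libraries unless TPM is named. All 10 macrophage markers reached 1 TPM in both libraries, led by Lyz2 (lysozyme, 1640 and 1365 TPM) and Adgre1 (F4/80, 691 and 675 TPM). None of 14 markers of lymphocytes and natural killer cells reached 1 TPM in both (summed level 0.43 and 0.99 TPM, 5 of them at 0 in both), nor did any of 7 neutrophil markers (summed level 0.35 and 1.00 TPM, 5 at 0 in both). Of 7 dendritic cell markers only Ccr7 did, at 1.40 and 1.18 TPM. Some marker counts depended on the quantification. Tables in kallisto layout, made directly from the reads, gave the neutrophil marker Cxcr2 315 and 206 counts, against 0 expected counts in both libraries. The lymphocyte marker Cd8a had 149 and 57.0 there, against 6 and 5, while the neutrophil marker Elane stayed at 0 in both. With posterior mean TPM, another deposited scale, the lymphocyte markers Pax5 (3.64 and 2.42), Gata3 (2.46 and 1.55) and Lck (1.03 and 1.24) passed 1 in both libraries. None of these had more than 8 expected counts in either library. In bulk RNA of this kind, fewer cells that express a gene and less RNA per cell cannot be told apart.

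The stretches below show letters that STATs and their partners are known to bind beside the 3 feedback genes described in most depth. They are the 250 bases before the RefSeq start of Socs1 (chr16:10785537-10785786, minus strand) and Socs3 (chr11:117969367-117969616, minus strand), and 30 bases around the RefSeq start of Cish (chr9:107296654-107296683, plus strand), in GRCm38.p6. Capitals mark matches to the palindrome TTCNNNGAA, the form STAT pairs bind, in Socs3 and Cish, and to GAAANNGAA, the core of the interferon-stimulated response element, in Socs1.
Socs1: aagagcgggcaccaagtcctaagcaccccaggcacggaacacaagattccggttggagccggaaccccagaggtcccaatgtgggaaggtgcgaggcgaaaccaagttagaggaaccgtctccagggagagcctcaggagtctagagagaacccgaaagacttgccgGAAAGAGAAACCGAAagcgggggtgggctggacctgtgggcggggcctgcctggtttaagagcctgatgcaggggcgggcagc
Socs3: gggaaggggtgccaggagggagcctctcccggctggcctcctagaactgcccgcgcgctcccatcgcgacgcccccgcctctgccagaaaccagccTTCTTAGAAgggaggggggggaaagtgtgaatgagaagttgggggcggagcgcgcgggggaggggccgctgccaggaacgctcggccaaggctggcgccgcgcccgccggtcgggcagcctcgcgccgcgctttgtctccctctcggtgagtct
Cish: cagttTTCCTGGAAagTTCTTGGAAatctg
The table of RefSeq promoters, 300 bases each, had an entry for 8 of the 9 members. Both strands were searched. The Socs3 window held 1 TTCNNNGAA match, 154 bases before the RefSeq start at 117969366. The annotated transcript Socs3-201, which held nearly all Socs3 counts, starts further downstream, at 117969186. The bases directly before that start lay outside the window and were not searched. The Cish window held 2, the first beginning at the start base itself. The Socs1 window held 2 GAAANNGAA matches that overlap each other, beginning 83 and 77 bases before the start. Of all 32851 promoter entries, 8.30% held TTCNNNGAA and 0.457% held it at least 2 times; the shares for GAAANNGAA were 8.56% and 0.624%. Stat2 and 1 of the 2 entries of Stat4 each held 1 GAAANNGAA match, and 1 of the 2 entries of Stat5a held the NF-kB motif, which 8.46% of all entries hold. A match is a description of the letters and shows no binding.

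The 9 genes spanned a wide range of levels, with Stat2 highest and Socs2 lowest in deposited TPM. The lowest place was not stable: with posterior mean TPM Socs2 had a mean of 1.95 against 1.19 for Stat4. That scale can lie well above 0 for genes with almost no counts, as for Pax5, so it does not show a higher level of Socs2. With kallisto-layout TPM the lowest in replicate 1 was Stat4 at 0.64, below Cish at 2.00 and Socs2 at 2.21. In replicate 2 the lowest was Cish at 0.12, below Stat4 at 0.13 and Socs2 at 0.28. That scale as deposited is not comparable between the libraries. Its median log2 ratio of replicate 2 to replicate 1 over detected genes was -2.36. At 1 TPM or more in both libraries were 6 of the 9 members, against 45.0% of 21938 protein-coding genes. The 6 were Socs1, Socs3, Stat2, Stat3, Stat5a and Stat6. Stat4 and Cish passed 1 TPM only in replicate 1 and Socs2 in neither. The median level was 39.3 and 51.7 TPM for the 5 STAT genes and 3.01 and 3.48 TPM for the 4 SOCS genes. The 2 sets overlapped: Socs3 lay above 4 of the 5 STAT members, all but Stat2, and Stat4 lay below Socs1 and Socs3, in both libraries. On the log2(TPM + 1) scale the SOCS median minus the STAT median was -3.33 in replicate 1 and -3.91 in replicate 2 (mean -3.62 ± 0.41, SD, n = 2). With 2 libraries the smallest p of an exact sign-flip test is 0.5, so no test is given. The size of the difference depends on which family genes are listed. Socs4 to Socs7, not among the members, each had a higher mean TPM than Socs1, Cish and Socs2. Stat5b, also not a member, lay below the STAT median. With these genes added the SOCS and STAT medians would lie closer.

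**Figure D1:**
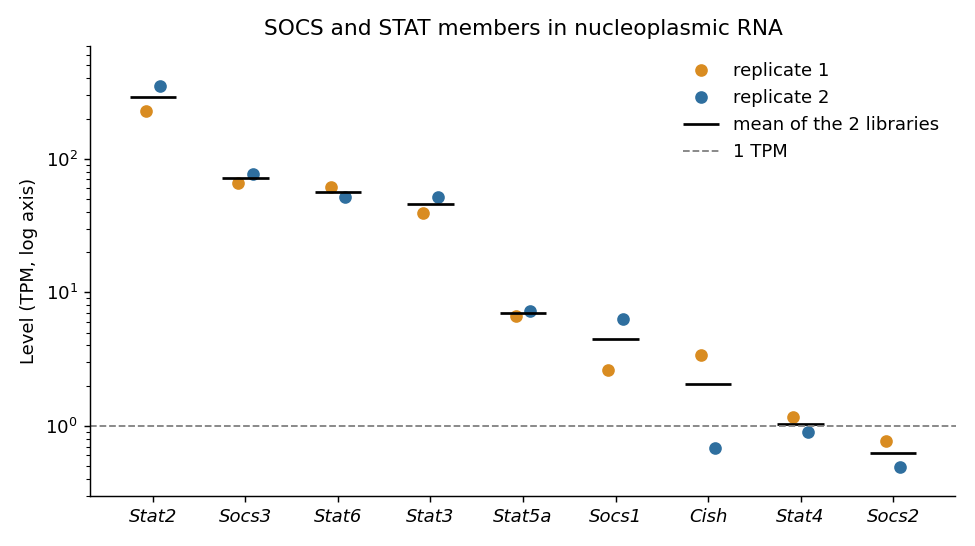
Level of each member in TPM on a log axis, ordered by mean; points are the 2 libraries, bars their mean, and the dashed line is 1 TPM. Stat2 lies at 227 and 352 TPM, above every other member, while Cish is the member whose 2 points lie farthest apart on this axis, at 3.41 and 0.68 TPM.

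Among the inhibitors, Socs3 was the most abundant. Socs3 (ENSMUSG00000053113.3, chromosome 11, 117966079 to 117970047, minus strand) binds the gp130 receptor chain and its kinases and restrains IL-6 signalling. It had 3075 expected counts in replicate 1 and 3984 in replicate 2, which gave 66.4 and 77.5 TPM. Its mean level exceeded that of 94.1% of the protein-coding genes with at least 10 counts in both libraries. The ratio of replicate 2 to replicate 1 was 1.43 after TMM normalisation (exact 95% interval 1.37 to 1.50). This and the other intervals of ratios cover counting error only.

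Socs1 (ENSMUSG00000038037.5, chromosome 16, 10782240 to 10785536, minus strand) inhibits JAK kinases directly and restrains interferon signalling. It had 134 and 360 expected counts, or 2.61 and 6.28 TPM. Replicate 2 was therefore the higher library, by 2.97-fold after TMM normalisation (95% interval 2.43 to 3.65). Of the detected protein-coding genes, 33.1% had a lower mean level than Socs1.

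Cish (ENSMUSG00000032578.7, chromosome 9, 107296026 to 107302784, plus strand), the inhibitor named for its SH2 domain and known as a target of STAT5, went the other way. It had 259 counts in replicate 1 but 46 in replicate 2, or 3.41 and 0.68 TPM. Replicate 1 was higher by 5.09-fold, a log2 ratio of -2.35 (95% interval -2.83 to -1.89). No other member differed as much between the libraries.

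Socs2 (ENSMUSG00000020027.18, chromosome 10, 95385362 to 95417180, minus strand), the inhibitor of growth hormone signalling, was near the limit of detection. It had 20 and 17 expected counts, or 0.77 and 0.49 TPM, and its ratio between libraries of 0.94 had an interval of 0.46 to 1.89. The count for Socs2 depended on the quantification: the tables in kallisto layout, made directly from the reads, gave it 151 and 93.4 counts. Its expected counts were thinly spread over 14 annotated transcripts, none with more than 12.2 in either library, so no transcript makeup is drawn from them.

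Among the transcription factors, Stat2 (ENSMUSG00000040033.16, chromosome 10, 128270559 to 128292849, plus strand), part of the complex that type I interferon activates, led by far. It had 14093 counts in replicate 1 and 20127 in replicate 2, or 227 and 352 TPM, above 99.2% of the detected protein-coding genes. The level in replicate 2 was 1.58-fold that in replicate 1 (95% interval 1.55 to 1.61). Stat2 alone held more TPM than the other 8 members together in each library, since all 9 summed to 409 and 548 TPM.

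Stat6 and Stat3 came next and were close to each other. Stat6 (ENSMUSG00000002147.18, chromosome 10, 127642986 to 127660957, plus strand), which IL-4 and IL-13 activate, had 3171 and 3017 counts, or 61.7 and 51.9 TPM. Stat3 (ENSMUSG00000004040.16, chromosome 11, 100885098 to 100939540, minus strand), which carries IL-6 and IL-10 signals, had 2290 and 3183 counts, or 39.3 and 51.7 TPM. The libraries nearly met for this pair in replicate 2, and the mean difference of 0.32 on the log2(TPM + 1) scale was smaller than its SD of 0.45. The ratio between libraries was 1.54 for Stat3 (95% interval 1.46 to 1.62) and 1.05 for Stat6 (1.00 to 1.11). Over the 6 ways to scale or count that were run for ratios, Stat6 was the only member whose direction turned. Its TPM was lower in replicate 2 (log2 ratio -0.25) while its TMM-normalised count was slightly higher (0.07).

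Stat5a (ENSMUSG00000004043.14, chromosome 11, 100859351 to 100885169, plus strand), which GM-CSF and other growth factors activate, had 414 and 497 counts, or 6.70 and 7.26 TPM. Its expected counts were not whole because reads are shared with its near-identical neighbour Stat5b: the sum of both genes was whole, 1507 in replicate 1 and 1810 in replicate 2. The split between the pair is therefore an estimate. Stat5b had 11.7 and 12.9 TPM, so Stat5a stood at 0.57 and 0.56 times its level.

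Stat4 (ENSMUSG00000062939.11, chromosome 1, 51987148 to 52107189, plus strand), which IL-12 activates chiefly in lymphocytes, was the lowest of the 5 STAT members. It had 43 counts in replicate 1 and 23.5 in replicate 2, or 1.16 and 0.90 TPM, with a ratio of 0.60 (95% interval 0.34 to 1.00).

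In the order of mean level, Stat2, Socs3, Stat6, Stat3, Stat5a, Socs1, Cish, Stat4 and Socs2, some neighbours did not differ beyond their spread. The mean difference on the log2(TPM + 1) scale was smaller than the SD between Stat6 and Stat3, Stat5a and Socs1, Socs1 and Cish, and Cish and Stat4. Of 36 pairs of members, 34 had the same order in both libraries, and 30 did in the kallisto-layout tables. The exceptions in TPM were Socs1 with Cish and Cish with Stat4, because Cish changed its place.

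The libraries differed more than 2-fold for 2 of the 9 members. Higher in replicate 2 was 1 member, Socs1, where 4.88% of 14587 genes with at least 10 counts in both libraries passed the same fold. Lower in replicate 2 was 1 member, Cish, where 2.93% of those genes did. All 9 members were among the genes with at least 10 counts. Both kept their direction and stayed past 2-fold in each of 6 ways to scale or count, with log2 ratios of 1.27 to 1.57 for Socs1 and -2.35 to -1.99 for Cish. Kallisto-layout TPM as deposited was not among the 6. Of the other members Stat2, Stat3, Socs3 and Stat5a were higher in replicate 2 by 1.33-fold to 1.58-fold, each with an interval above 1. With 1 group and the starting amount going with the replicate, these ratios measure the difference of these 2 libraries only.

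**Figure D2:**
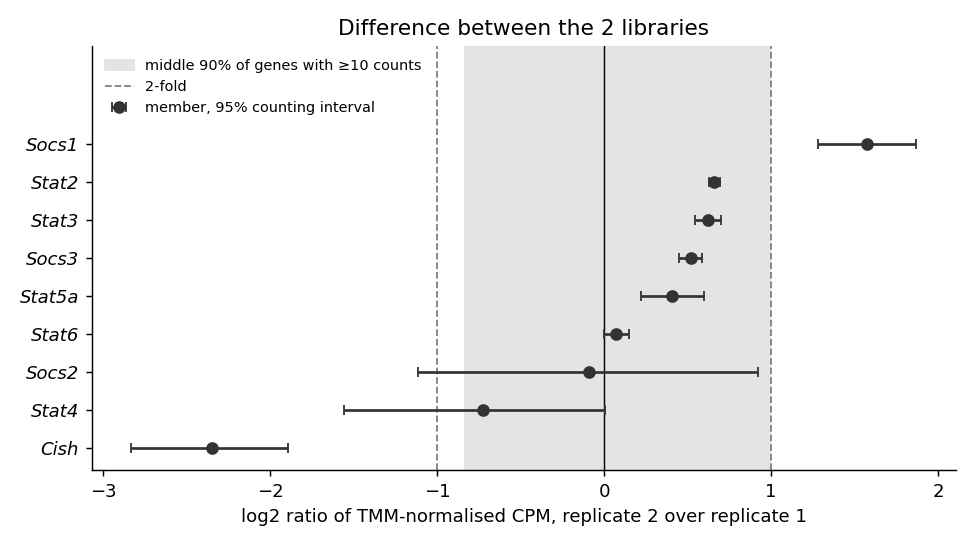
Log2 ratio of TMM-normalised counts (CPM), replicate 2 over replicate 1, with exact 95% counting intervals; dashed lines mark 2-fold and the grey band holds the middle 90% of genes with at least 10 counts in both libraries. Socs1 at 1.57 and Cish at -2.35 are the 2 points outside both the band and the 2-fold lines.

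The members differed in transcript makeup. Socs1 has 2 annotated transcripts, both protein coding, and Socs3 carried 100% and 99.8% of its TPM on its coding transcript Socs3-201. Stat2, Stat3, Stat4 and Stat6 carried part of their TPM on transcripts annotated as retained intron, which keep intron sequence and are not annotated as coding. Socs2 has 1 such transcript, and Socs1, Socs3, Cish and Stat5a have none. In this nuclear RNA, intron reads of unspliced precursor RNA and of a retained-intron transcript cannot be told apart. Under 50% of TPM on protein-coding transcripts in both libraries was found for 1 of the 9 members, Cish, against 15.7% of 11362 detected protein-coding genes.

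The share on retained-intron transcripts was 41.4% and 43.9% of TPM for Stat3 and 31.2% and 29.5% for Stat6. The median over 6848 detected coding genes with such a transcript was 24.9% and 26.0%, below both. These transcripts are short, and TPM divides by length, so the same transcripts took a smaller share of the expected counts: 10.7% and 10.5% for Stat3 and 5.53% and 5.38% for Stat6. The same median by counts was 14.4% and 14.9%, above both, so the order turned with the unit. The largest single ones by mean TPM were Stat6-205, which reaches into introns 13 and 16 (11.6 and 6.86 TPM), and Stat3-208, which holds introns 15 and 16 whole (4.44 and 3.52 TPM). In replicate 2 Stat3-211 was above Stat3-208, at 4.77 TPM. Introns are numbered along the coding transcript of the same gene that has the most counts. For Stat4 the retained-intron transcripts rested on 7 and 8.30 counts, too few for a share to be read.

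**Figure D3:**
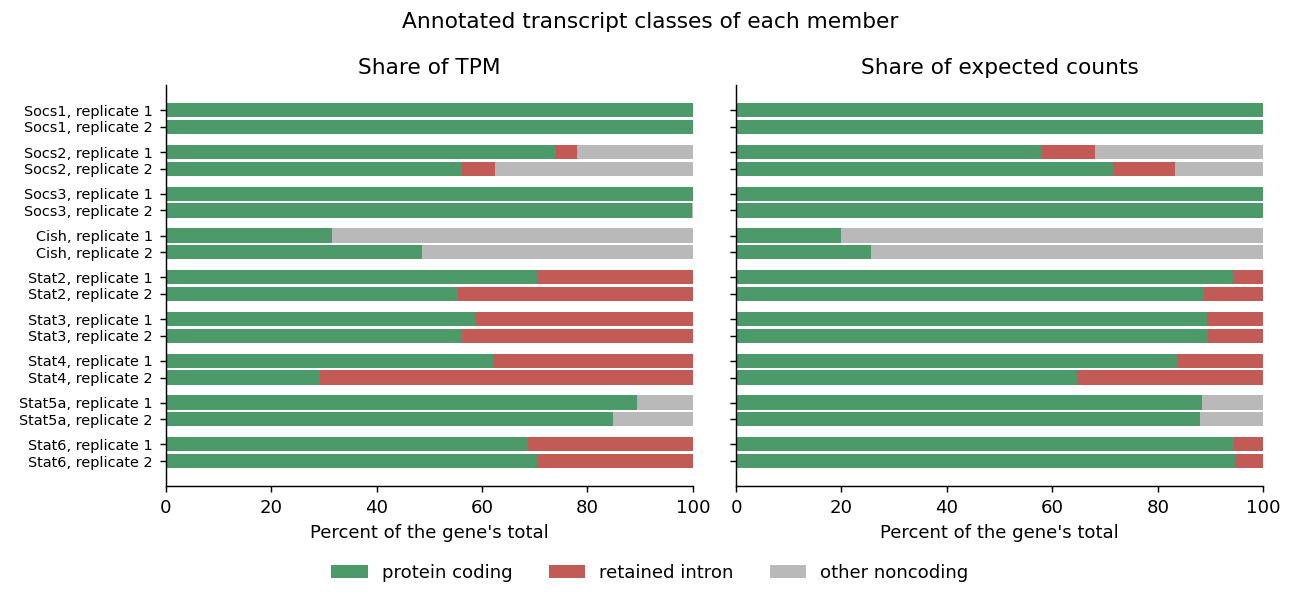
Share of each member's TPM (left) and of its expected counts (right) on protein-coding, retained-intron and other noncoding transcripts, in percent, 1 bar per library. The red share is wider by TPM than by counts in Stat2, Stat3, Stat4 and Stat6, and Cish is the member with most of its bar grey.

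In Stat2 the retained-intron share differed between the libraries. It was 29.5% of TPM in replicate 1 and 44.5% in replicate 2, or 5.78% and 11.3% of expected counts, above the median gene by TPM and below it by counts in both libraries. The retained-intron transcripts summed to 67.0 TPM in replicate 1 and 157 TPM in replicate 2 (a TPM ratio of 2.34), and the coding ones to 160 and 195 TPM (a TPM ratio of 1.22). A gap of at least 10 percentage points of TPM towards replicate 2 was seen for 2 of the 5 members with such transcripts, Stat2 and the sparsely counted Stat4, against 15.9% of the 6848 genes. The gap of Stat2, 15.0 points, was larger than that of 91.0% of those genes. By expected counts the gap of Stat2 was 5.49 points, below the same limit of 10. In the kallisto-layout tables its retained-intron share was 45.0% and 55.6% of TPM.

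Stat2-206 was the largest of them. It shares the first exons of Stat2 and ends inside intron 4, of which it holds 192 of 425 bases, within its 736 bases. It had 228 and 768 counts, or 22.3 TPM in replicate 1 (deposited interval 18.3 to 24.7) and 64.2 TPM in replicate 2 (56.1 to 66.4). The deposited intervals did not overlap. Stat2-205 holds the whole of intron 16, 101 bases, and had 4.09 and 16.8 TPM, with intervals of 2.85 to 5.25 and 13.0 to 19.4. The 2 stretches below show where each of them runs on from coding exon into intron, in capitals, on the plus strand of GRCm38, at chr10:128277189-128277248 for Stat2-206 and chr10:128283570-128283713 for Stat2-205.
Stat2-206: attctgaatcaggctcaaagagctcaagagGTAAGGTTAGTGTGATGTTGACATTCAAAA
Stat2-205: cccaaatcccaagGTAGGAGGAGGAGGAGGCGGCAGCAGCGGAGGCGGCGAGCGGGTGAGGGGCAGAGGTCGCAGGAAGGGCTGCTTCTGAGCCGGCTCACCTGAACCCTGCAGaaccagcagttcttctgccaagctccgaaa
Both introns open with the GT that marks a splice donor, and intron 16 closes with the AG of a splice acceptor. The other 4 retained-intron transcripts of Stat2 reach into introns 9 to 11, 13, 14 and 20. Stat2-207 had 7.55 and 20.0 TPM and Stat2-203 had 3.59 and 17.3 TPM, with intervals that did not overlap. Stat2-204 (15.5 and 19.3 TPM) and Stat2-208 (14.0 and 18.9 TPM) had intervals that did. All 6 had the higher TPM in replicate 2, with TPM ratios of 1.25 to 4.82, and the coding transcript Stat2-201 had a TPM ratio of 1.21 (160 and 194 TPM). After TMM normalisation of the counts the ratios were 1.60 to 6.69 for the 6 and 1.48 for Stat2-201. The 6.69 was that of Stat2-203, on 17.0 and 103 counts. Kallisto-layout counts before normalisation were lower in replicate 2 for Stat2-204 (529 and 463) and Stat2-208 (424 and 401). They were higher for Stat2-203 (243 and 432), Stat2-205, Stat2-206, Stat2-207 and Stat2-201 (19629 and 20894). The larger ratios of Stat2-204 and Stat2-208 than of Stat2-201 thus depended on the quantification.

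**Figure D4:**
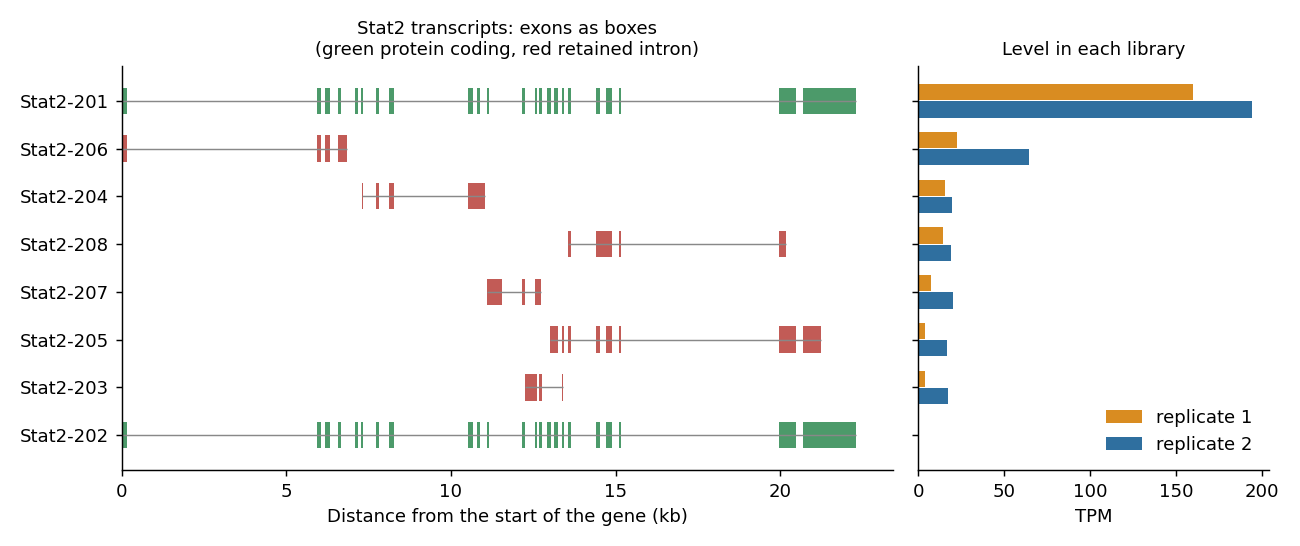
Annotated Stat2 transcripts by distance from the start of the gene in kilobases (boxes are exons, green protein coding and red retained intron), with the TPM of each in both libraries on the right. The short retained-intron models lie along the gene, and Stat2-206 at its start shows the widest gap between libraries in TPM, 22.3 against 64.2, among the red ones.

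Most expected counts of Cish were assigned to a noncoding model. Cish-202, annotated as a processed transcript of 4697 bases, holds 2993 bases that are intron 1 in the coding transcript Cish-204. It had 207 and 34.3 counts, or 2.33 and 0.35 TPM, 68.4% and 51.5% of the gene. Reads of unspliced Cish RNA in intron 1 cannot be told apart from reads of Cish-202. The coding transcripts together had 51.7 counts in replicate 1 and 11.7 in replicate 2. Both kinds were therefore lower in replicate 2, with the coding counts at 0.23 times their number in replicate 1 before normalisation. Stat5a had a similar long model, Stat5a-207, which spans introns 7 to 11 whole, at 0.63 and 0.65 TPM.

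Some members overlap other genes, and the strand setting of the counting is not given in the sources used here, so reads in the overlaps cannot be assigned by strand. Stat3 and Stat5a meet tail to tail and overlap by 72 bases, and Stat6 overlaps Nab2 (6.89 and 7.38 TPM) by 40 bases. On the strand opposite Cish, the antisense gene Gm17041 and the transcribed pseudogene Gm17040 were both listed at 0 counts. Within Stat4, Gm28177 on the same strand had 0 and 7.46 counts and Gm3940 on the other strand had 0 and 1.

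The 5 further family genes listed, Stat5b and Socs4 to Socs7, all reached 1 TPM in both libraries. Socs6 (19.9 and 16.3 TPM), Socs4 (18.0 and 11.5), Socs5 (8.10 and 5.85) and Socs7 (6.63 and 5.77), better known from growth factor receptor signalling, each had a higher mean than Socs1, Cish or Socs2. None of the 5 differed more than 2-fold between the libraries.

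The 4 JAK kinases were all present. Tyk2, which serves type I interferon and IL-10 receptors, had 50.1 and 73.1 TPM. Jak2 (46.2 and 41.0 TPM) and Jak1 (41.9 and 42.3 TPM) had similar levels. Jak3, the partner of the common gamma chain, was lowest at 9.38 and 13.9 TPM. None passed 2-fold between the libraries.

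Of 19 receptor chains 17 reached 1 TPM in both libraries. The highest were Il2rg, the common gamma chain (151 and 136 TPM), Il10ra (79.4 and 112 TPM) and Il10rb (93.8 and 92.1 TPM), the chains of the IL-10 receptor. Lifr (2.55 and 0.92 TPM) and Osmr (0 and 0.07 TPM) did not reach it. Differences past 2-fold were seen for Il12rb1, a chain of the IL-12 receptor that signals through STAT4, which was higher in replicate 2 (21.2 and 56.2 TPM), and for Il13ra1, which was lower (4.40 and 1.38 TPM).

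Ligand genes were lower: 7 of 15 reached 1 TPM in both libraries. Ebi3, a subunit of IL-27 and IL-35, had 33.2 and 34.3 TPM, Il10 had 33.5 and 24.4 TPM and Osm, oncostatin M, had 17.6 and 7.01 TPM. Osm and Il6 (3.63 and 1.31 TPM) were more than 2-fold lower in replicate 2. Ifnb1, interferon beta, was more than 2-fold higher, with 12 counts in replicate 1 and 68 in replicate 2 (1.14 and 5.54 TPM). Il4 and Ifng were listed at 0 in both.

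All 11 other inhibitors reached 1 TPM in both libraries and none passed 2-fold. Ptprc (CD45, a phosphatase that also acts on JAKs) had 449 and 337 TPM, Usp18, which blocks the type I interferon receptor, 68.1 and 106 TPM, and Ptpn6 (SHP-1) 70.6 and 95.8 TPM. Of 16 known STAT target genes 13 reached 1 TPM in both. Mcl1 (407 and 365 TPM), Irf1 (207 and 344 TPM) and Junb (177 and 208 TPM) led. More than 2-fold higher in replicate 2 were Fcgr1 and Cebpb, at log2 ratios of 1.01 and 1.18, and Pim2 was lower at -1.34. The median log2 ratio was 0.41 for the 9 members, -0.06 for the 5 further family genes, 0.53 for the kinases, 0.20 for the receptors, 0.15 for the ligands, 0.32 for the other inhibitors and 0.29 for the targets, over the members of each list with at least 10 counts. It was 0.32 for the macrophage markers, which are no part of the pathway, and 0.00 for all 14587 detected genes.

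**Figure D5:**
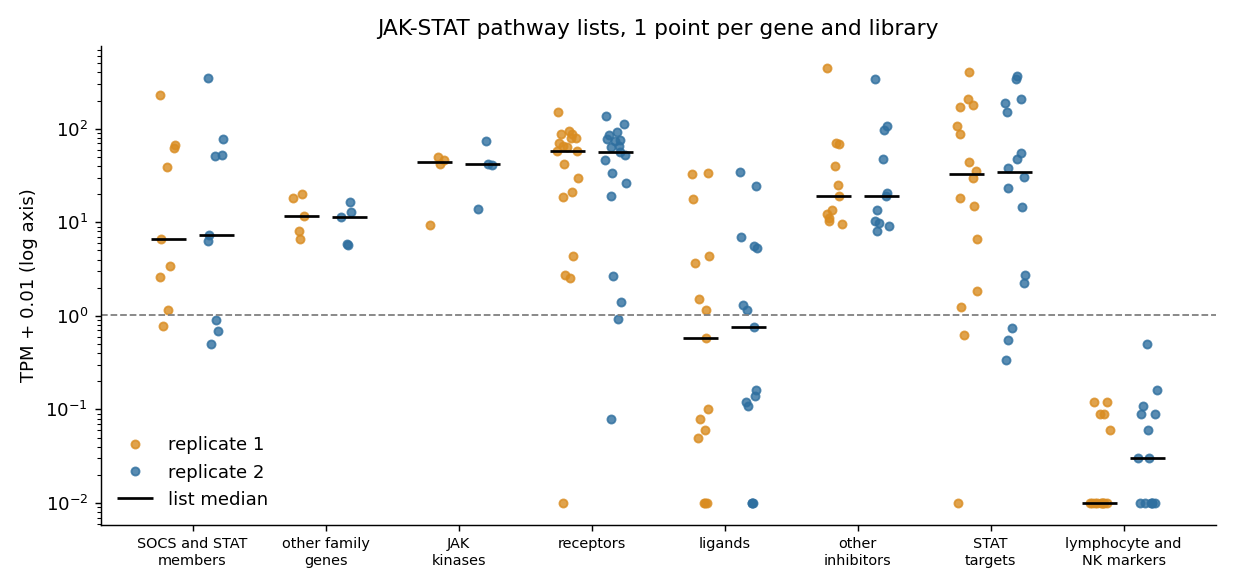
TPM + 0.01 on a log axis for every gene of the pathway lists, 1 point per gene and library, with list medians as black bars and the dashed line at 1 TPM. The members spread from 0.49 to 352 TPM, the kinases and receptors have medians of 41.7 to 58.5 TPM, ligand medians lie below 1 TPM, and all lymphocyte and natural killer markers lie below it.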

How the data were processed

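Expected counts of genes and transcripts, as deposited, came from alignments to the transcriptome of mm10 (GRCm38) with GENCODE M21, per the deposited file notes. The authors' TPM values in the same tables, and the posterior mean TPM, sum to the same total in each library, per the file headers. The deposited interval bounds of TPM, a signal that need not sum to that total, have no stated level. The percent of a gene's TPM on each transcript is deposited beside them. A further deposited table, with the layout kallisto writes, holds estimated counts and TPM made directly from the reads. The strand setting and the names of the programs were not given in the sources used here.

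Members were found by symbol in the identifier fields of the kallisto-layout tables, and their gene and transcript rows were read in all tables. Coordinates and transcript classes came from GENCODE M21, and promoters from RefSeq (GRCm38.p6). TPM was used to compare genes, with log2(TPM + 1) for differences. Ratios between libraries used CPM with TMM factors from edgeR 4.0.16 in R 4.3.3, over genes with at least 10 expected counts in both libraries, called past 2-fold. Their intervals are exact 95% intervals on rounded counts. The calculation was tested on simulated data. Other steps ran in Python 3.11.15. The size factors of DESeq2 1.42.0 served as an alternative scaling. No p-value was computed, since 1 group of 2 libraries allows no comparison of conditions.

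The text names all members, all genes of the other family and kinase lists, the 3 genes with the highest mean TPM of each other list except marker lists, where fewer are given, and listed genes past 2-fold. Lifr, Osmr, Il4, Ifng and Il6 were named for their values or for completing a count. The members and lists were chosen with earlier results of these data known. Reads in introns count only where a transcript that holds the intron is annotated.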

Additional observations from a re-analysis of the deposited data

How the results depend on the processing

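With 1 group of 2 libraries, the precision of every value is limited by their number, and at 17 to 46 counts the levels of Socs2, Stat4 and, in replicate 2, Cish are poorly measured. No paired analysis was possible because all samples belong to 1 group. The lower SOCS than STAT median kept its direction under every alternative run (main value -3.62). It was -4.22 with kallisto-layout TPM rescaled to protein-coding genes, an alternative chosen after seeing the data, and -4.11 with a pseudocount of 0.1. Leaving out each replicate gave -3.91 and -3.33. No alternative changed the genes compared. Socs4 to Socs7, outside these medians, each had a higher mean TPM than Socs1, Cish and Socs2. Stat5b, also outside them, lay below the STAT median at 11.7 and 12.9 TPM. With these genes added the SOCS and STAT medians would lie closer, by an amount that was not computed. From 5 to 9 members reached 1 TPM in both libraries, against 6 in the main setting: 5 with kallisto-layout TPM as deposited, and 9 with posterior mean TPM or with TPM rescaled to protein-coding genes. Leaving out each replicate gave 6 and 8. Rescaling raises TPM, for Socs2 in replicate 1 from 0.77 to 2.61, so 1 TPM is a looser limit there. Posterior mean TPM passes 1 even for some genes with almost no counts. Shares over all genes were computed in the main setting only. The counts of members under other settings, here and below, therefore have no such share beside them. Protein-coding genes outside the mitochondrial genome held 22.8% of kallisto-layout TPM in replicate 1 and 5.27% in replicate 2. Their shares of TPM were 29.5% and 27.3%. Levels in kallisto-layout TPM as deposited are therefore not comparable between the 2 libraries. In kallisto-layout TPM 3 members, rather than 1, had under 50% of TPM on protein-coding transcripts, and leaving out each replicate gave 2 and 1. By share of expected counts 1 member, rather than 2, had a retained-intron share at least 10 points higher in replicate 2, and by kallisto-layout TPM 3 had (Socs2, Stat2 and Stat4). Both members past 2-fold, Socs1 and Cish, were past it under each of the 6 scalings run for ratios. Those did not include kallisto-layout TPM as deposited, where the median log2 ratio of replicate 2 to replicate 1 was -2.36. In that TPM every member was lower in replicate 2, Socs1 at 1.77 and 0.88. The causes of these shifts were not tested.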
